A study of Homo sapiens with 4 samples.

Results

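The genes described here are 10 heat shock genes outside the HSP70 family. They encode the small heat shock proteins HSPB1, HSPB8 and CRYAB, the co-chaperones BAG3, DNAJB1 and HSPH1, the cytosolic HSP90 proteins HSP90AA1 and HSP90AB1, and the mitochondrial chaperonin HSPD1 with its partner HSPE1. They were chosen by name, and each matched 1 of the 61541 genes in the count table. The RNA came from MDA-MB-231, an established line of human breast cancer cells. Control cells were parental cells passaged serially in normal medium with no added cadmium. Cadmium-resistant cells came from the same line, selected by serial passage in medium with CdSO4 that ended at 10 µM, and the metal was part of their culture rather than a short treatment. Each group had 2 libraries (n = 2), named here control 2 and control 3 after the numbers in the count table, and cadmium 1 and cadmium 2. Both groups derive from a single line, and the resistant cells are a selected population, so an effect of cadmium itself and a change fixed during selection cannot be told apart.

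Heat shock proteins bind unfolded proteins and keep them from clumping until they are refolded or degraded. Small heat shock proteins hold such clients without ATP, HSP70 and its J-domain partners refold them with ATP, and HSP90 completes the folding of kinases, receptors and other regulatory proteins. Many of these genes are controlled by heat shock factor 1, which binds repeated heat shock elements in their promoters, and cadmium is a classical inducer of this response because it attacks protein thiols.

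Of the 10 genes, only HSPB1 changed between the groups by the main test. HSPB1 RNA was 2.14-fold lower in the cadmium-resistant cells. HSPB8, HSPD1 and HSPE1 had lower means in the resistant cells but missed the threshold, and both HSP90 genes, BAG3, DNAJB1 and HSPH1 had log2 fold changes between -0.16 and 0.18. CRYAB was almost undetected, with 1 read in the controls and 12 reads in the resistant cells.

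The libraries held 51934729 to 61916007 reads assigned to genes. The 2 control libraries differed from each other more than the 2 cadmium libraries did: the median absolute log2 ratio over 12924 expressed genes was 0.39 for the controls, compared with 0.11 for the cadmium pair. VIM, CD44 and KRT18, which mark this line, were abundant in all 4 libraries. The receptor gene ESR1 had normalized counts of 2.13 to 18.9 and PGR of 6.38 to 29.6, whereas ERBB2 was not low, at 4584 to 6773, and CDH1 ranged from 107 to 615. In bulk RNA, a change in the number of cells of a kind and a change in RNA per cell cannot be told apart. The labels call the controls biological replicates and the cadmium libraries only replicates, which are not stated to be separate cultures. The 2 pairs may therefore differ in kind. The p-values measure the spread between these libraries, which for the cadmium pair may be technical.

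RefSeq promoters, from 250 bases before to 50 bases after each annotated start on GRCh38.p14, were available for 9 of the 10 genes, with 15 start sites in all. They were searched on both strands for adjoining heat shock units, written GAANNTTC or TTCNNGAA, and for the longer form with a further unit, GAANNTTCNNGAA or TTCNNGAANNTTC, which contains the shorter one. The shorter form was found in 7 of the 15 promoters, from 6 of the 9 genes, and in 13.5% of all 35116 promoters or 16.2% of all genes of the RefSeq table. The longer form was found in promoters of HSPD1, HSP90AB1 and HSP90AA1 and in 0.49% of all promoters. The stretches around the matches of 5 genes are shown because they place the small heat shock gene that fell beside HSP90 genes that did not pass the test. Capitals mark the heat shock units, and each stretch is printed 5′ to 3′ on the strand of its gene. HSPB1 is at chr7:76302466-76302523 (plus strand), HSPB8 at chr12:119178818-119178930 (plus), DNAJB1 at chr19:14518412-14518499 (minus), HSP90AA1 at chr14:102087080-102087157 (minus) and HSP90AB1 at chr6:44247753-44247868 (plus).
HSPB1: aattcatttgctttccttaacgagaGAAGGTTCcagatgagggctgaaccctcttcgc
HSPB8: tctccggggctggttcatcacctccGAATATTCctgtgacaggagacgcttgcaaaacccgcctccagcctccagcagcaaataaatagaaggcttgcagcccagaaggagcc
DNAJB1: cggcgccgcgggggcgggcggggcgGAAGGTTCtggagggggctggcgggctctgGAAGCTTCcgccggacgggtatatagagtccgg
HSP90AA1: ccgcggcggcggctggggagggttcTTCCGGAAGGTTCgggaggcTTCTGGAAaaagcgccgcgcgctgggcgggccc
HSP90AB1: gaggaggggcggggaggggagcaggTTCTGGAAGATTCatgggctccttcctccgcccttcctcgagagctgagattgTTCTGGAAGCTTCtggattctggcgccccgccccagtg

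Positions are counted from the annotated start, with negative values before it. In HSPB1 the single match has the shorter form and begins at -182. HSPB8 has shorter matches at -88, in the stretch printed, and at 4, after the start and outside that stretch. HSP90AB1 has 3 annotated starts, and from the one at 44247943 the longer form begins at -165 and -112. HSP90AA1 has 2, and from the one at 102087044 the longer form begins at -88 and a further shorter match at -68. DNAJB1 has 3, with shorter matches at -77 and -47 from the start at 14518397, both in the stretch printed, and at 1 from the start at 14517937, not printed. The other annotated starts of these 3 genes had no match to the heat shock units. In HSPD1, not printed, the longer form begins at -245 and -240 from the start at 197499840, within bases annotated as exon. The window of the HSPD1 start at 197500274 had no match to these units. BAG3, HSPE1 and HSPH1 had no match in their windows, which says only that these letters were not in those windows. The core of the metal response element, TGCACNC or TGCGCNC with its reverse complements GNGTGCA and GNGCGCA, was found for 7 of the 9 genes and in 33.4% of the 27305 genes of the table. These matches describe sequence and were not tested as binding sites.

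HSPB1, also known as HSP27, forms large oligomers that hold unfolded clients and also binds actin filaments. In the count table, which uses hg38, the gene spans chr7:76302673-76304295 on the plus strand (ENSG00000106211). Its normalized read counts, which are counts divided by the DESeq2 size factor of the library, were 23202 and 15461 in control 2 and control 3, against 8744 and 9358 in cadmium 1 and cadmium 2. Both cadmium libraries lay below both controls, and the controls differed from each other 1.5-fold. The means were 19332 ± 5474 in control cells and 9051 ± 434 in resistant cells (SD, n = 2). In DESeq2 the difference was -1.09 ± 0.31 on the log2 scale (standard error) with an adjusted p of 0.0452, below the threshold of 0.1. Over all 19816 genes tested, 1.14% passed this threshold in either direction and 0.535% were called lower, against 1 of the 9 heat shock genes tested.

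The HSPB1 call depended on the test. In the edgeR quasi-likelihood test HSPB1 had an unadjusted p of 0.00481 and an adjusted p of 0.62, and in limma-voom the adjusted p was 0.669. The edgeR test called 0 of 19241 genes (0%) at an adjusted p below 0.1, and 1506 genes (7.83%) had an unadjusted p below 0.05, of which HSPB1 was the only heat shock gene of the 10. The limma-voom test gave 1423 genes below the same unadjusted p. Because both cadmium libraries lay below both controls, the log2 ratio had to be negative for every pair of libraries. It was -1.41 for cadmium 1 and -1.31 for cadmium 2 over control 2, and -0.82 and -0.72 over control 3. Both cadmium libraries were below both controls in 19.9% of all genes tested. Without cadmium 1 the log2 fold change was -1.05, and without cadmium 2 it was -1.15, both with an adjusted p of 1.00 in DESeq2. In those fits the spread rested on the 2 controls, and 0.114% and 0.107% of all genes tested were called.

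HSPB8, a small heat shock protein that works with BAG3 in clearing misfolded proteins by autophagy, was far less abundant. It lies at chr12:119171555-119224855 on the plus strand. Its normalized counts were 396 and 218 in control 2 and control 3, against 168 and 186 in cadmium 1 and cadmium 2. Both cadmium libraries were again below both controls, but control 3 was closer to the cadmium libraries than to control 2. The log2 fold change of -0.80 (standard error 0.43) had an adjusted p of 0.766 in DESeq2, and its 95% interval ran from -1.64 to 0.05. Without control 3 the log2 fold change was -1.18, and without control 2 it was -0.30.

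CRYAB encodes alpha B-crystallin, the small heat shock protein of lens and muscle, at chr11:111908564-111923722 on the minus strand. The raw counts were 1 read in control 2, 0 in control 3, and 6 in each cadmium library. With a mean normalized count of 3.21 the gene was below the DESeq2 filter of 7.69 and was not tested. The ratio of 12 to 1 reads, scaled to the total reads of each group, was 12.2 with an exact 95% interval of 1.81 to 523. That interval covers counting error only and is too narrow, because each mate of a read pair was counted separately. A count of 0 in control 3 allows up to 3 reads if reads are independent, and more where both mates of a pair are counted. The exons of CRYAB overlap those of HSPB2 on the opposite strand over 598 bases, and HSPB2 had no reads in any library.

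BAG3 is the co-chaperone that releases clients from HSP70 and joins it to HSPB8. The gene lies at chr10:119651380-119677819 on the plus strand. The normalized counts were 11931 and 12216 in control 2 and control 3, against 12178 and 13817 in cadmium 1 and cadmium 2. Cadmium 1 lay between the controls and cadmium 2 above them, so the groups overlapped. The BAG3 log2 fold change was 0.11 (standard error 0.25), its 95% interval ran from -0.38 to 0.59, and its adjusted p was 1.00 in DESeq2. The partners HSPB8 and BAG3 had means that differed in opposite directions, and the difference between the 2 genes was not tested.

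DNAJB1, also called HSP40, is the J-domain protein that delivers clients to HSP70 and stimulates its ATPase, and its gene lies at chr19:14514769-14560391 on the minus strand. Its normalized counts were 14662 and 13073 in the controls, and 12084 and 12803 in cadmium 1 and cadmium 2. Both cadmium libraries were below both controls, but the gap from cadmium 2 to control 3 was smaller than the gap within either group. The DNAJB1 log2 fold change was -0.16 (standard error 0.25), its 95% interval ran from -0.64 to 0.33, and its adjusted p was 1.00 in DESeq2. Its exons share 525 bases with TECR on the opposite strand. Strand was ignored in counting and reads fitting several genes were dropped, so the DNAJB1 count lacks reads that fit both genes.

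HSPH1, or HSP105, is the nucleotide exchange factor that lets HSP70 release its client, with its gene at chr13:31134973-31162388 on the minus strand. The normalized counts were 14262 and 9824 in control 2 and control 3, against 12236 and 13144 in cadmium 1 and cadmium 2. Both cadmium libraries fell between the controls. The log2 fold change of HSPH1 was 0.08 (standard error 0.30), with a 95% interval of -0.51 to 0.66 and an adjusted p of 1.00 in DESeq2. Its direction was set by the control used: 0.37 without control 2 and -0.18 without control 3.

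HSP90AA1 is the stress-inducible form of cytosolic HSP90, and HSP90AB1 is the constitutive form. Their genes lie at chr14:102080742-102139699 on the minus strand and at chr6:44246166-44253888 on the plus strand. HSP90AA1 had normalized counts of 110270 and 119073 in control 2 and control 3, against 120253 and 121923 in cadmium 1 and cadmium 2. It was the only one of the 9 tested genes with both cadmium libraries above both controls, a pattern seen in 20.3% of all genes tested, and the gap to control 3 was small beside the gap between the controls. For HSP90AA1 the log2 fold change was 0.08 (standard error 0.24), with an adjusted p of 1.00 in DESeq2 and a 95% interval of -0.39 to 0.54. HSP90AB1 had normalized counts of 116656 and 81493 in control 2 and control 3, against 108036 and 116492 in cadmium 1 and cadmium 2. Both cadmium libraries lay between the controls. HSP90AB1 differed by 0.18 on the log2 scale (standard error 0.29), with an adjusted p of 1.00 in DESeq2 and a 95% interval of -0.39 to 0.75. Without control 2 the HSP90AB1 log2 fold change was 0.46, and without control 3 it was -0.07.

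HSPD1, known as HSP60, forms the folding chamber of the mitochondrial matrix, and HSPE1, known as HSP10, is its lid. The genes, at chr2:197486584-197516737 and chr2:197500140-197503449, lie head to head, HSPD1 on the minus strand with an annotated start at 197500274 and HSPE1 on the plus strand with one at 197500379 (GRCh38.p14). HSPD1 had normalized counts of 40325 and 23751 in control 2 and control 3, against 23791 and 24151 in cadmium 1 and cadmium 2. HSPE1 had 1469, 818, 797 and 798 in the same order. For both genes control 2 stood alone and control 3 was next to the cadmium libraries; the HSPD1 groups overlapped there, and the HSPE1 groups were separated by a small gap. For HSPD1 the log2 fold change was -0.42 (standard error 0.33), with an adjusted p of 0.983 in DESeq2. For HSPE1 it was -0.52 (standard error 0.37), with an adjusted p of 0.941 in DESeq2. Without control 3 the values were -0.76 for HSPD1 and -0.89 for HSPE1, and without control 2 they were 0.01 and -0.04.

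The chaperonin pair kept nearly the same proportion in every library. For every 100 HSPD1 reads there were 3.64 and 3.44 HSPE1 reads in control 2 and control 3, against 3.35 and 3.3 in cadmium 1 and cadmium 2. HSPE1 is a short gene with many processed copies in the genome, and its count is uncertain: reads assigned to 7 HSPE1 pseudogenes came to 33.9% to 36.4% of the HSPE1 reads, and reads that fit several places were dropped. HSPE1P2, the pseudogene with most reads, had raw counts of 514 and 243 in the controls and 257 and 253 in the cadmium libraries, which follow HSPE1. Pseudogenes of the other members had at most 2.85% of the reads of their gene.

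**Figure D1:**
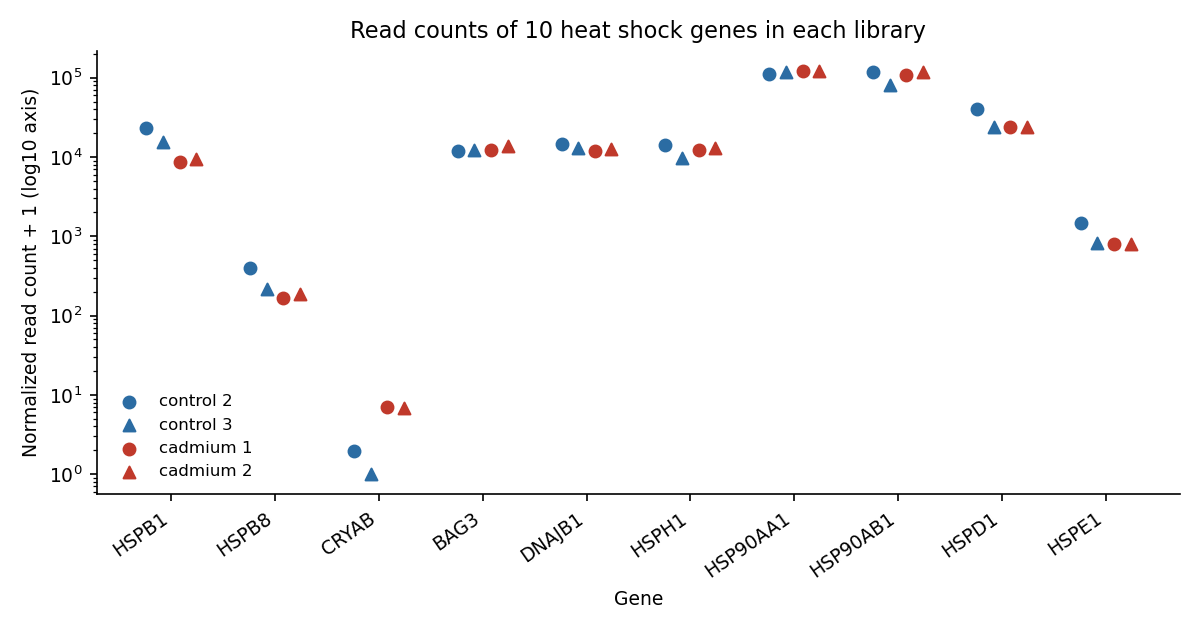
Normalized read count plus 1 (log10 axis) of each of the 10 genes in control 2 and control 3 (blue circles and triangles) and cadmium 1 and cadmium 2 (red circles and triangles). For HSPB1 and HSPB8 both cadmium libraries lie below both controls, while CRYAB sits near 0 and both HSP90 genes lie between 81493 and 121923.

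Per length, the HSP90 genes were the most abundant of the group. Counts per kilobase of exon, scaled to the same sum in each library as the TPM unit does, had means of 2695 for HSP90AB1, 1765 for HSP90AA1 and 660 for HSPB1. BAG3 followed at 349 and HSPD1 at 278, with ranges that overlapped. DNAJB1 at 122 TPM and HSPH1 at 112 TPM also overlapped, and were followed by HSPE1 at 40.2, HSPB8 at 5.1 and CRYAB at 0.0562. The order depends on the lengths used, which take in all annotated exon bases, such as 1623 for HSPB1 and 8391 for HSPH1. The HSPE1 level lacks the dropped reads, and per length it was only 0.507 to 0.536 of that of HSPE1P2. HSPB1 ran from 423 TPM in cadmium 1 to 1036 TPM in control 2 and kept the third place in all 4 libraries. The 10 genes together made up 0.646% and 0.556% of the TPM in control 2 and control 3, and 0.599% and 0.61% in the cadmium libraries, so the cadmium libraries lay between the controls. The ratio of HSP90AB1 to HSP90AA1 TPM was 1.81 and 1.17 in control 2 and control 3, against 1.54 and 1.63 in cadmium 1 and cadmium 2.

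The spread between the controls bears on most of these genes. In 7 of the 9 tested genes control 2 exceeded control 3, by 1.82-fold for HSPB8, 1.8-fold for HSPE1, 1.7-fold for HSPD1, 1.5-fold for HSPB1, 1.45-fold for HSPH1, 1.43-fold for HSP90AB1 and 1.12-fold for DNAJB1. The share of all genes with control 2 above control 3 was not counted, so this is not shown to be particular to these genes. BAG3 and HSP90AA1 differed little, with log2 ratios of control 3 over control 2 of 0.03 and 0.11. The median absolute log2 ratio between the controls was 0.54 over the 9 genes and 0.39 over all expressed genes. Between the cadmium libraries the median was 0.10, and the largest ratio was 0.18, for BAG3. For HSPH1, HSP90AB1, HSPD1 and HSPE1 the difference between the controls was clearly larger than the log2 fold change between the groups, and for HSPB8, DNAJB1 and HSP90AA1 it was slightly larger. HSPB1 and BAG3 had a group difference larger than the difference between their controls. For BAG3 both were small, at 0.11 and 0.03 on the log2 scale, and its groups overlapped. With control 2 dropped HSPB1 differed by -0.77 on the log2 scale, and with control 3 dropped by -1.37. Dropping cadmium 1 gave -1.05 for HSPB1, and dropping cadmium 2 gave -1.15.

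**Figure D2:**
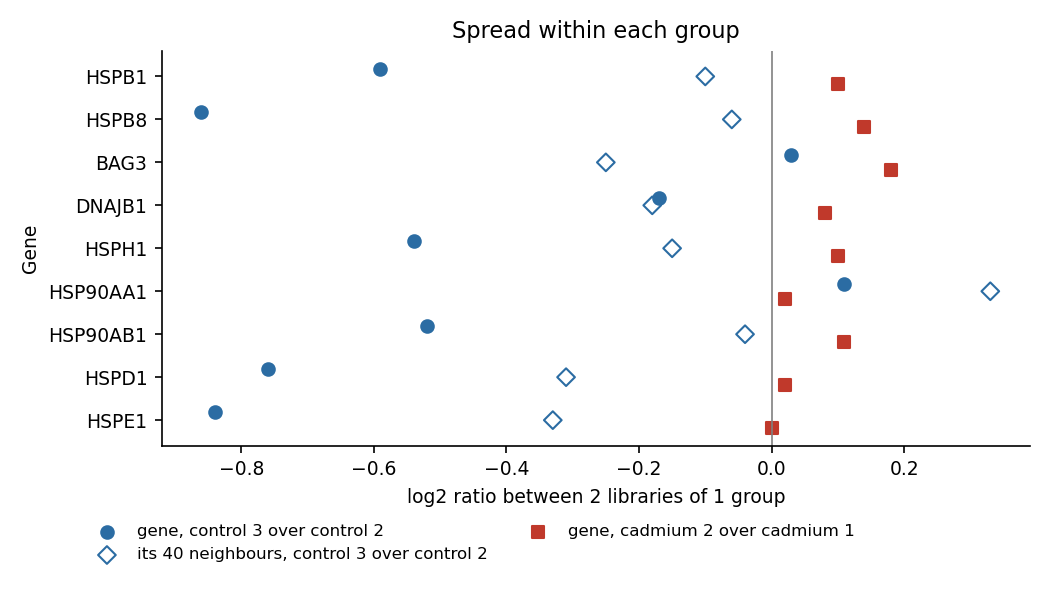
Log2 ratio of each of the 9 tested genes between the 2 controls (blue circles, control 3 over control 2) and between the 2 cadmium libraries (red squares, cadmium 2 over cadmium 1), with the median ratio between the controls of the 40 neighbouring expressed genes (open diamonds). The control ratios reach -0.86 for HSPB8, while no cadmium ratio is beyond 0.18.

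Leaving out a control changed how many members were called. Without control 2 the called genes were HSPB1, HSPH1 and HSP90AB1, 3 of 9, against 14.8% of all genes tested. Without control 3 they were HSPB1, HSPB8, HSPD1 and HSPE1, 4 of 9, against 31.2% of all genes tested. These fits assume that the lone control varied like the 2 cadmium libraries. Both cadmium libraries were below both controls in 4 of the 9 genes (HSPB1, HSPB8, DNAJB1 and HSPE1), against 19.9% of all genes tested. The median log2 fold change was -0.16 over the 9 genes and -0.02 over all genes tested.

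**Figure D3:**
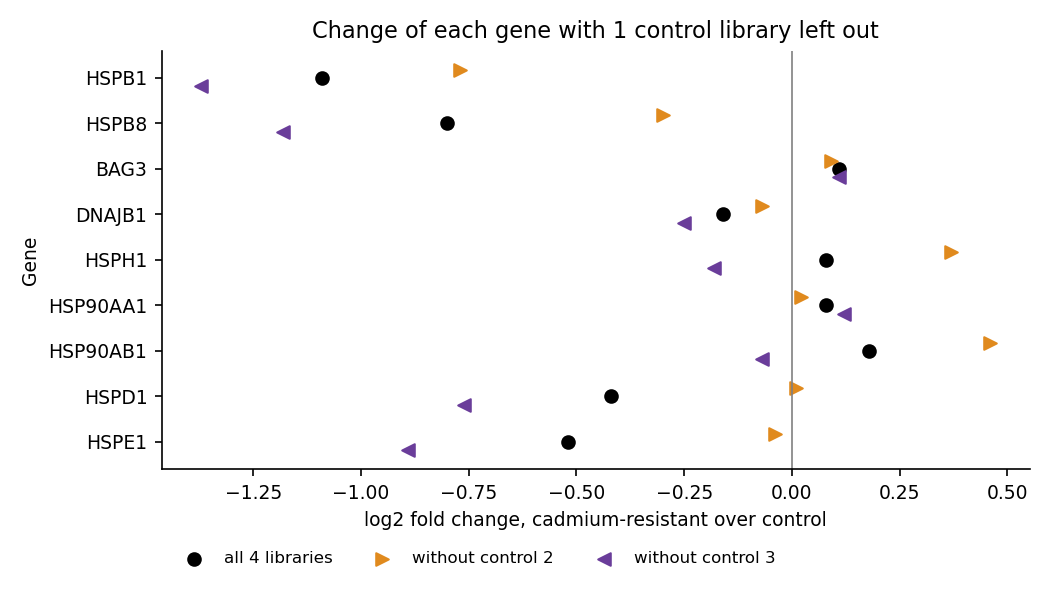
DESeq2 log2 fold change, cadmium-resistant over control, of the 9 tested genes with all 4 libraries (black circles), without control 2 (orange triangles) and without control 3 (purple triangles). HSPB1 stays between -1.37 and -0.77, whereas HSPH1, HSP90AB1 and HSPD1 lie on different sides of 0.

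Whole chromosome stretches differed between these libraries, so each gene was set beside its 40 nearest expressed neighbours, 20 on each side counting genes whose mean normalized count reached 100. The neighbours of HSPB1 on chromosome 7 had a median log2 ratio of -0.36, and 4 of the 40 were lower than HSPB1. With the neighbours' shift removed in each library, the HSPB1 log2 fold change was -0.67 with an adjusted p of 0.377 in DESeq2, so the call was lost. HSPB8 was unlike its neighbours on chromosome 12, whose median was -0.02, and none of the 40 was lower. It stood apart from them between the 2 controls as well. There its log2 ratio of control 3 over control 2 was -0.86 against a neighbour median of -0.06, again with none of the 40 lower. The neighbours of HSP90AB1 on chromosome 6 had a median of 0.37, above the 0.18 of the gene itself, and with their shift removed HSP90AB1 had a log2 fold change of -0.18. HSPD1 and HSPE1 share most of their neighbours, with medians of -0.18 and -0.19. The medians for BAG3, DNAJB1, HSPH1, HSP90AA1 and CRYAB were between -0.13 and 0.12.

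**Figure D4:**
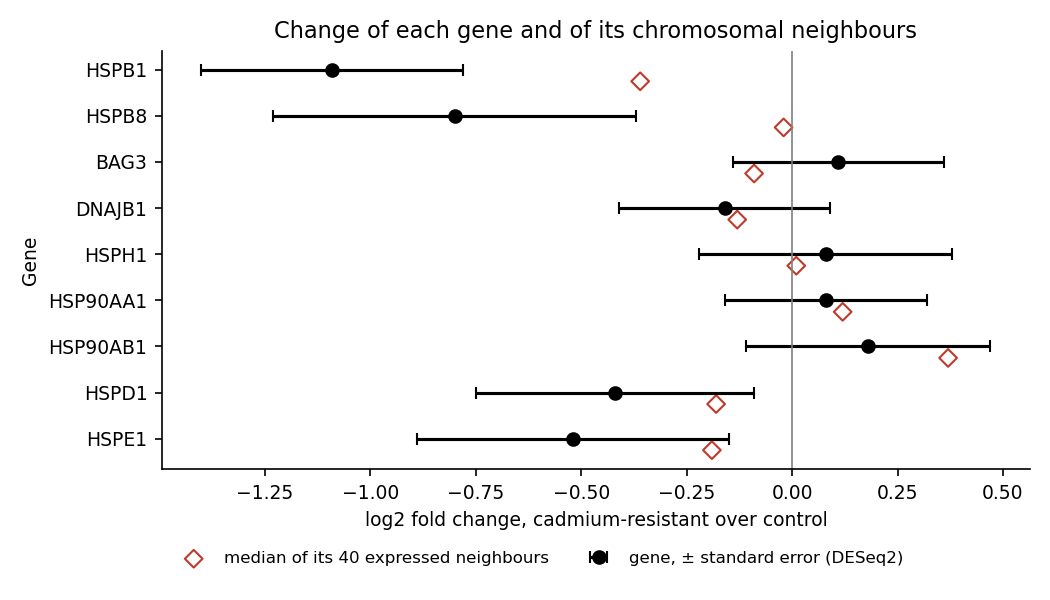
DESeq2 log2 fold change of each tested gene with its standard error (black) and the median log2 ratio, cadmium-resistant over control, of its 40 expressed neighbours (red diamonds). HSPB1 lies at -1.09 with neighbours at -0.36, and HSP90AB1 at 0.18 with neighbours at 0.37.

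For each gene, the gene with the most similar pattern was sought among 12923 others whose mean normalized count reached 100, by the root mean square difference of centred log2 normalized counts over the 4 libraries. DOCK2 was nearest to HSPB1 at 0.043, and 18 genes lay within 0.1. The other nearest genes were KIAA1549 for HSPB8, MTMR6 for BAG3, TERF2IP for DNAJB1, RILP for HSPH1, STK24 for HSP90AA1, LYRM4 for HSP90AB1, CYFIP1 for HSPD1 and CTSF for HSPE1, at 0.018 or less. With 84 to 1809 genes within 0.1 of those members, 4 libraries do not single out a partner for them.

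The transcription factors that control these genes did not pass the test. HSF1, the main activator of the heat shock response, had normalized counts of 7931 and 6116 in control 2 and control 3, against 6415 and 6638 in cadmium 1 and cadmium 2, and both cadmium libraries lay between the controls. Its log2 fold change was -0.11 (standard error 0.27), with an adjusted p of 1.00 in DESeq2. Of 6 heat shock factor and factor-binding genes 5 were tested, 1 was higher and 4 were lower, and 0 were called by DESeq2 or edgeR, with 0 at an unadjusted edgeR p below 0.05. Over all genes tested the shares were 1.14% for DESeq2, 0% for edgeR and 7.83% for the unadjusted edgeR p. A count of 0 in so few genes therefore says little about them.

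Of 7 other small heat shock genes, CRYAA, HSPB2 and HSPB3 had no read in any library, and HSPB7 and HSPB9 had too few to be tested. Of the 2 that were tested, IFT25 and HSPB6, 1 was lower and 1 was higher. DESeq2 and edgeR called 0 of them, against 1.14% and 0% of all genes tested. An unadjusted edgeR p below 0.05 was found for 1 of them, against 7.83% of all genes that edgeR tested. The most abundant was IFT25, also named HSPB11, an intraflagellar transport protein with a small heat shock fold. IFT25 had normalized counts of 2585 and 1607 in control 2 and control 3, against 1124 and 1300 in cadmium 1 and cadmium 2. Both cadmium libraries were below both controls. Its log2 fold change of -0.79 (standard error 0.34) had an adjusted p of 0.486 in DESeq2, and its unadjusted edgeR p was 0.0358. HSPB6, which is best known from heart and smooth muscle, differed the other way at a low level, with normalized counts of 6.62 and 7.44 in control 2 and control 3, against 11.9 and 21.7 in cadmium 1 and cadmium 2. Both cadmium libraries of HSPB6 were above both controls, and its log2 fold change of 1.26 (standard error 1.14) had an adjusted p of 1.00 in DESeq2.

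Partners of HSP90 were not called. Among 20 HSP90 co-chaperones 6 were higher and 14 lower, with a median log2 fold change of -0.10, and 0 were called by DESeq2 or edgeR, with 0 at an unadjusted edgeR p below 0.05. Since DESeq2 called 1.14% and edgeR 0% of all genes tested, 0 calls among 20 genes is near those shares. An unadjusted edgeR p below 0.05 was found for 7.83% of all genes that edgeR tested. The most abundant was STIP1, which hands clients from HSP70 to HSP90, with normalized counts of 36740 and 19051 in control 2 and control 3, against 20527 and 21732 in cadmium 1 and cadmium 2. As for HSPD1, control 2 stood alone and the cadmium libraries lay near control 3. The log2 fold change of STIP1 was -0.40 (standard error 0.37), with an adjusted p of 1.00 in DESeq2. HSP90B1, the HSP90 of the endoplasmic reticulum, had normalized counts of 37180 and 41047 in control 2 and control 3, against 37484 and 34334 in cadmium 1 and cadmium 2, with a log2 fold change of -0.12 and an adjusted p of 1.00 in DESeq2. HSP90B1 and TRAP1, the mitochondrial form, both missed the threshold.

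Of 5 other BAG genes 3 were higher and 2 lower, with log2 fold changes from -0.31 to 0.34, and BAG6, the most abundant, had normalized counts of 31797 and 24971 in control 2 and control 3, against 35099 and 36553 in cadmium 1 and cadmium 2. Both cadmium libraries of BAG6, a chaperone for tail-anchored membrane proteins, were above both controls, but its log2 fold change of 0.34 (standard error 0.27) had an adjusted p of 0.981 in DESeq2. BAG6 lies on chromosome 6, as HSP90AB1 does, and was not set beside its own neighbours. Of 12 other DNAJA and DNAJB genes 7 were higher and 5 lower, with log2 fold changes from -0.28 to 0.28 and a median of 0.01. DNAJB6, the most abundant of them and a suppressor of protein aggregation, differed by 0.02 on the log2 scale (standard error 0.26), with an adjusted p of 1.00 in DESeq2. In both lists DESeq2 and edgeR called 0 genes, against 1.14% and 0% of all genes tested. None had an unadjusted edgeR p below 0.05, against 7.83% of all genes that edgeR tested.

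The HSP70 list was the only other one with calls, 2 of 13 genes, both higher, against 1.14% of all genes tested called in either direction. HSPA6, an HSP70 that is strictly stress-inducible, had normalized counts of 80.4 and 75.5 in control 2 and control 3, against 246 and 496 in cadmium 1 and cadmium 2, and HSPA1A, the main inducible HSP70, had 2253, 1812, 3668 and 4669 in that order. In both genes the cadmium libraries were above the controls. The log2 fold change was 2.25 for HSPA6 and 1.04 for HSPA1A, with adjusted p values of 6.69e-04 and 0.0473 in DESeq2. The edgeR test called 0 of the 13, and 3 had an unadjusted edgeR p below 0.05, against 7.83% of all genes that edgeR tested. HSPA1A is nearly identical to HSPA1B, so their counts are uncertain where reads fit both. HSPA1B was not called, with a log2 fold change of 0.67 and an adjusted p of 0.353 in DESeq2. Both genes lie on chromosome 6, where the neighbours of HSP90AB1 had a median log2 ratio of 0.37. HSPA1A and HSPA1B were not set beside their own neighbours. HSPA8, the constitutive HSP70 and the most abundant gene of the list, had normalized counts of 153597 and 107568 in control 2 and control 3, against 108014 and 132889 in cadmium 1 and cadmium 2, and a log2 fold change of -0.12 with an adjusted p of 1.00 in DESeq2.

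Partners of the mitochondrial chaperonin split evenly. Of 10 mitochondrial chaperone and protease genes 5 were higher and 5 lower, with a median of 0.01 and 0 called by DESeq2 or edgeR. An unadjusted edgeR p below 0.05 was found for 1 of the 10, against 7.83% of all genes that edgeR tested. HSPA9, the mitochondrial HSP70 and the most abundant, differed by 0.07 on the log2 scale (standard error 0.27), with an adjusted p of 1.00 in DESeq2. All 8 genes of TRiC, the cytosolic chaperonin that folds actin and tubulin, were lower in control 3 than in control 2. How many of all genes shared that order was not counted. In the comparison of the groups 1 of the 8 was higher and 7 were lower, with a median of -0.19, and 0 were called by DESeq2 or edgeR, with 0 at an unadjusted edgeR p below 0.05. For this list and the mitochondrial one, 0 calls stand against 1.14% of all genes tested in DESeq2 and 0% in edgeR. CCT5, the most abundant, had normalized counts of 38098 and 24875 in control 2 and control 3, against 25284 and 28303 in cadmium 1 and cadmium 2, which places the cadmium libraries between the controls. Its log2 fold change was -0.23 (standard error 0.31), with an adjusted p of 1.00 in DESeq2.

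**Figure D5:**
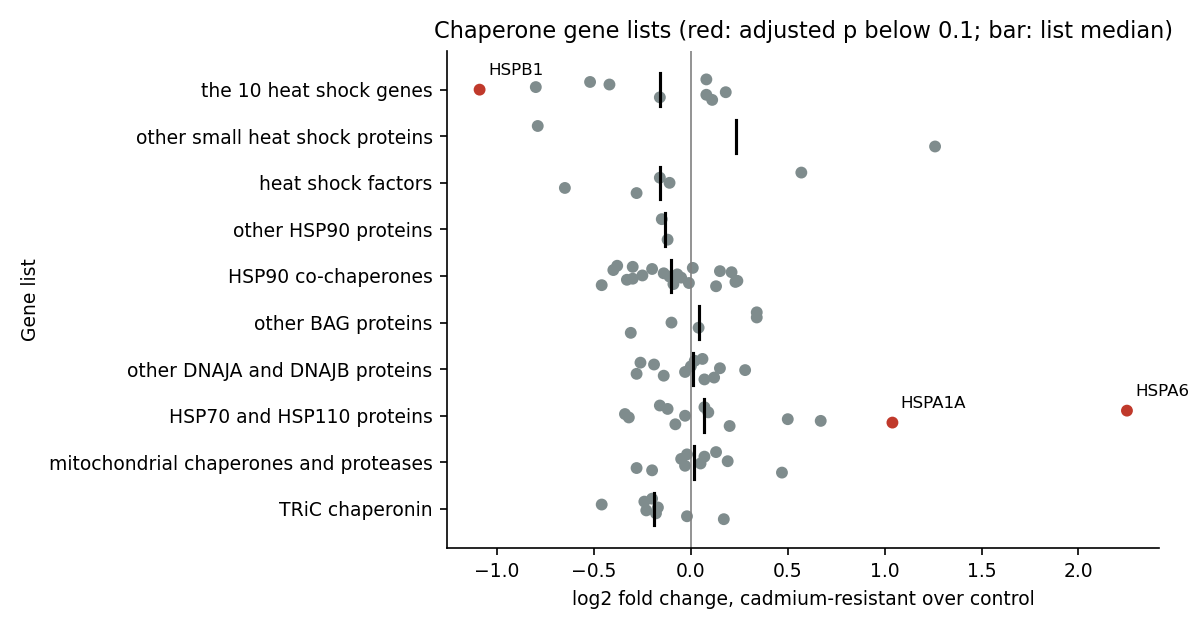
DESeq2 log2 fold change, cadmium-resistant over control, of each tested gene in the 10 heat shock genes and 9 related chaperone lists, with called genes in red and a bar at the median of each list. The called genes are HSPB1 at -1.09, HSPA1A at 1.04 and HSPA6 at 2.25.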

How the data were processed

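The authors trimmed paired reads with bbduk, aligned them with hisat2 to the hg38 build, and counted reads per gene with featureCounts 2.0.1, and the deposited values are raw counts per gene. The header command left defaults in place, so strand was ignored, reads fitting several places or genes were dropped, and both mates were counted (70.6% to 71.5% of counts from 1 to 20 were even). Control columns carry the numbers 2 and 3, and the labels 1 and 2, so they were assigned to the group only. The 10 genes and all lists were chosen with earlier results of these data known. DESeq2 1.42.0 (R 4.3.3; design: group) was fitted over all genes, as the study used it, with two-sided Wald tests, p-values adjusted by Benjamini-Hochberg, a threshold of 0.1 and 9 of the 10 genes passing the filter. Alternatives were edgeR 4.0.16, limma 3.58.1, other size factors, neighbour-adjusted factors, other filters, halved counts, a threshold of 0.05 and leaving out each library. The scripts were tested on simulated counts with the same groups and a planted change in 200 genes. At a 2-fold change DESeq2 recovered 27.5% of them with 81 false calls, and edgeR 2% with 18. At a 4-fold change DESeq2 recovered 89% with 96 false calls, and edgeR 75.5% with 23. In the simulation a change near 2-fold was thus mostly missed, and many DESeq2 calls were false. The simulated counts gave each gene the same spread in both groups. The real controls differed more than the cadmium pair, so these rates need not hold for the real libraries. Besides the 10 genes, HSF1, the called genes and the most abundant gene of each list, and the nearest gene in pattern to each member are named. The other small heat shock genes and HSPA1B were named after their values were seen, and the ranges of the line markers are given as checks. Genes named by overlap or pseudogene were taken from the annotation. A planned comparison of protein sequences was not made.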

Additional observations from a re-analysis of the deposited data

How the results depend on the processing

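With 2 libraries in a group, a call rests on 1 pair of differences, and the large spread between the controls limits what can be called. HSPB1 lost its call in edgeR (log2 fold change -1.09), limma-voom (-1.07) and with neighbour-adjusted factors (-0.67), and the number of members called was then 0 in place of 1. It kept the call with TMM and upper-quartile factors, no independent filtering, at least 10 counts in 2 libraries, halved counts and a threshold of 0.05. Leaving out each library in turn, the number called ranged from 0 to 4, and the log2 fold change from -1.37 to -0.77 for HSPB1, -1.18 to -0.30 for HSPB8, -0.18 to 0.37 for HSPH1, -0.07 to 0.46 for HSP90AB1, -0.76 to 0.01 for HSPD1 and -0.89 to -0.04 for HSPE1. The sign turned for HSPH1 and HSP90AB1 without control 3 and for HSPD1 without control 2. With neighbour-adjusted factors it turned for HSP90AA1 (-0.07) and HSP90AB1 (-0.18), which that setting produces by removing their neighbours' rise. The neighbours' own median, 0.12 for HSP90AA1, -0.18 for HSPD1 and -0.09 for BAG3, was -0.07, 0.02 and 0.07 without control 2, where its sign turned, and 0.38, -0.34 and -0.14 without control 3. For CRYAB it was -0.01 with 20 neighbours in place of 0.02 with 40, and for DNAJB1 it was -0.28 in place of -0.13. BAG3 and DNAJB1 stayed uncalled and kept their sign in all 13 alternatives, but their values moved, from 0.01 without cadmium 2 to 0.19 without cadmium 1 for BAG3, and from -0.25 without control 3 to -0.02 with neighbour-adjusted factors for DNAJB1. The HSP70 list went from 2 calls to 0 in edgeR and limma-voom. The order of levels per length was the same for all 10 genes with DESeq2 size factors. That outcome was nearly fixed in advance, because both measures use the same gene lengths and differ only in the scale of each library. The lengths themselves were not varied. No paired analysis was possible because columns of the control group are numbered otherwise than the labels.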
